A study of Mus musculus with 9 samples.

Results

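Lhx2, Ldb1, Ebf1, Ebf2, Ebf3 and Ebf4 encode proteins that act at odorant receptor enhancers, and Emx2 a homeobox factor of receptor expression. Kdm1a and Cbx5 were listed under receptor silencing and heterochromatin. Lbr was listed with them as a protein that ties heterochromatin to the nuclear envelope. Its level is not read here as a measure of receptor silencing. These 10 genes are described here in olfactory sensory neurons that express a chosen receptor gene. They were taken by symbol, and all 10 were found among the 55291 genes of the deposited tables and passed the filter on low counts, which kept 16399 genes. The libraries were made from polyadenylated RNA of mature olfactory sensory neurons, the cells of the nasal lining that detect odorants, of mice that carried Olfr1507-IRES-GFP, Olfr73-IRES-GFP or Olfr160-IRES-mCherry. In such an allele the transcript of an odorant receptor gene also encodes a fluorescent protein, which marks the neurons that chose it. The neurons were freed from the main olfactory epithelium with papain and collected by flow cytometry as cells with a strong GFP or mCherry signal and little of the dead-cell dye DAPI. Each group held 3 libraries, 9 in all, and the groups are named after the tagged receptor. No group is an untagged control, the fluorescent protein differs between the Olfr160 mice and the others, and strain, age and sex of the mice are not stated in the labels. Nothing in the labels tells separate animals from repeated libraries of one preparation, so p-values measure the spread between these libraries, which may be technical.

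As background, each olfactory sensory neuron expresses 1 allele of 1 odorant receptor gene while the other receptor genes lie in silent heterochromatin. Lhx2, a LIM-homeodomain factor, and Ebf proteins bind side by side at many intergenic receptor enhancers, and Ldb1, a bridging protein without DNA binding of its own, holds the Lhx2-bound enhancers of different chromosomes together in a hub next to the chosen gene. Kdm1a, also called LSD1, is a histone demethylase needed for the first activation of a receptor and is lowered once a receptor is expressed, whereas HP1 proteins such as Cbx5 bind the methylated histone of heterochromatin and Lbr ties heterochromatin to the nuclear envelope.

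The libraries held 17212807 to 36230606 expected counts. The tagged receptor was the highest odorant receptor gene in every library, but it made up 94.7%, 85.1% and 91.7% of all odorant receptor counts in the Olfr1507 libraries, 22.8%, 23.6% and 32.8% in the Olfr73 libraries, and 2.08%, 4.54% and 10.1% in the Olfr160 libraries. The 9 markers of mature olfactory neurons took 8.11% to 8.31% of the counts in Olfr1507, 5.25% to 5.38% in Olfr73 and 2.95% to 4.63% in Olfr160, and none of the 9 was at 0 in any group. The 10 markers of immature neurons took 0.101% to 0.102%, 0.139% to 0.172% and 0.224% to 0.240% of the counts in Olfr1507, Olfr73 and Olfr160 libraries, and the 10 markers of sustentacular and gland cells 0.0206% to 0.0549%, 0.276% to 0.501% and 1.83% to 4.29%. Of the 10 markers of basal and progenitor cells, Neurog1 was at 0 in every Olfr1507 and Olfr73 library, and the list took 0.000296% to 0.000591%, 0.00525% to 0.00917% and 0.0282% to 0.0551% of the counts in the same order. Of the immature neuron markers, 3 were higher and 4 lower for Olfr1507 over Olfr160, 2 higher and 4 lower for Olfr1507 over Olfr73, and 1 higher and 4 lower for Olfr73 over Olfr160 (edgeR, adjusted p under 0.05), where 48.4%, 34.4% and 17.9% of all tested genes were called. Sorted bulk RNA cannot tell a smaller share of cells of one type from less RNA per cell.

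Ebf2 stood far above the other genes in all 3 groups. Its mean over the 9 libraries was 1041 TPM (a transcript level corrected for transcript length and library depth), a level above that of 99.3% of the tested genes. Ebf1 followed at 123 TPM, Lhx2 at 59.4, Lbr at 50.2, Ebf3 at 24.3, Cbx5 at 23.5, Emx2 at 10.8, Ebf4 at 9.60, Ldb1 at 9.28 and Kdm1a at 6.02, the last above 44.8% of the tested genes. Neighbours in this order were not always separated: Lhx2 was above Lbr in 6 of 9 libraries, Ebf3 above Cbx5 in 7, Emx2 above Ebf4 in 5 and Ebf4 above Ldb1 in 4, whereas each of the other neighbouring pairs kept its order in 9 of 9. The transcript level of Ldb1 was thus a fraction of that of Lhx2 in every library. Protein levels were not measured.

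**Figure D1:**
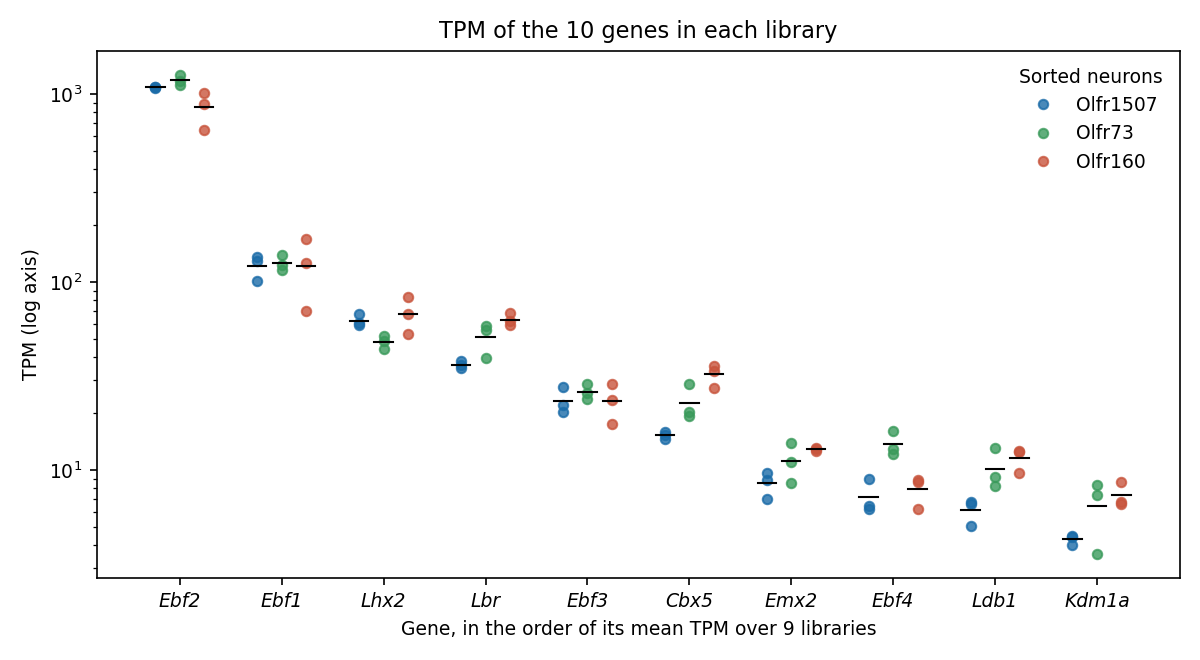
TPM of the 10 genes (log axis) in each of the 9 libraries, in the order of the mean over all libraries; points are libraries, coloured by group, and black bars are group means (n = 3). Ebf2, at 645 to 1267 TPM, lies above every other gene in each library, and Cbx5, Lbr and Ldb1 are lowest in the Olfr1507 libraries.

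A test of whether any of the 3 groups differed (edgeR, Benjamini-Hochberg adjusted p under 0.05, TMM scaling of the libraries) called 6 of the 10 genes, where 50.8% of all tested genes were called. The 6 were Cbx5 (adjusted p = 0.000493), Lhx2 (0.00792), Ebf4 (0.0201), Lbr (0.0238), Ebf2 (0.0320) and Ldb1 (0.0491). Ebf1, Ebf3, Emx2 and Kdm1a did not pass. Between Olfr1507 and Olfr160 neurons 4 of the 10 genes were called against 48.4% of all genes. Of these, 1 gene, Ebf2, was higher in Olfr1507 (20.7% of all genes) and 3 genes, Ldb1, Cbx5 and Lbr, were lower (27.7% of all genes). Between Olfr1507 and Olfr73 neurons 3 of the 10 were called against 34.4% of all genes, with Lhx2 higher in Olfr1507 (14.5% of all genes) and Ebf4 and Cbx5 lower (19.9%). Between Olfr73 and Olfr160 neurons 2 of the 10, Ebf2 and Ebf4, were called, both higher in Olfr73, against 17.9% of all genes in either direction and 7.45% in that one. These shares lie near those of all genes. The comparisons share libraries and are not independent of each other. The normalised levels of the groups did not overlap for 5, 4 and 4 of the 10 genes in these comparisons, where 65.8%, 47.6% and 41.0% of all tested genes did not overlap.

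**Figure D2:**
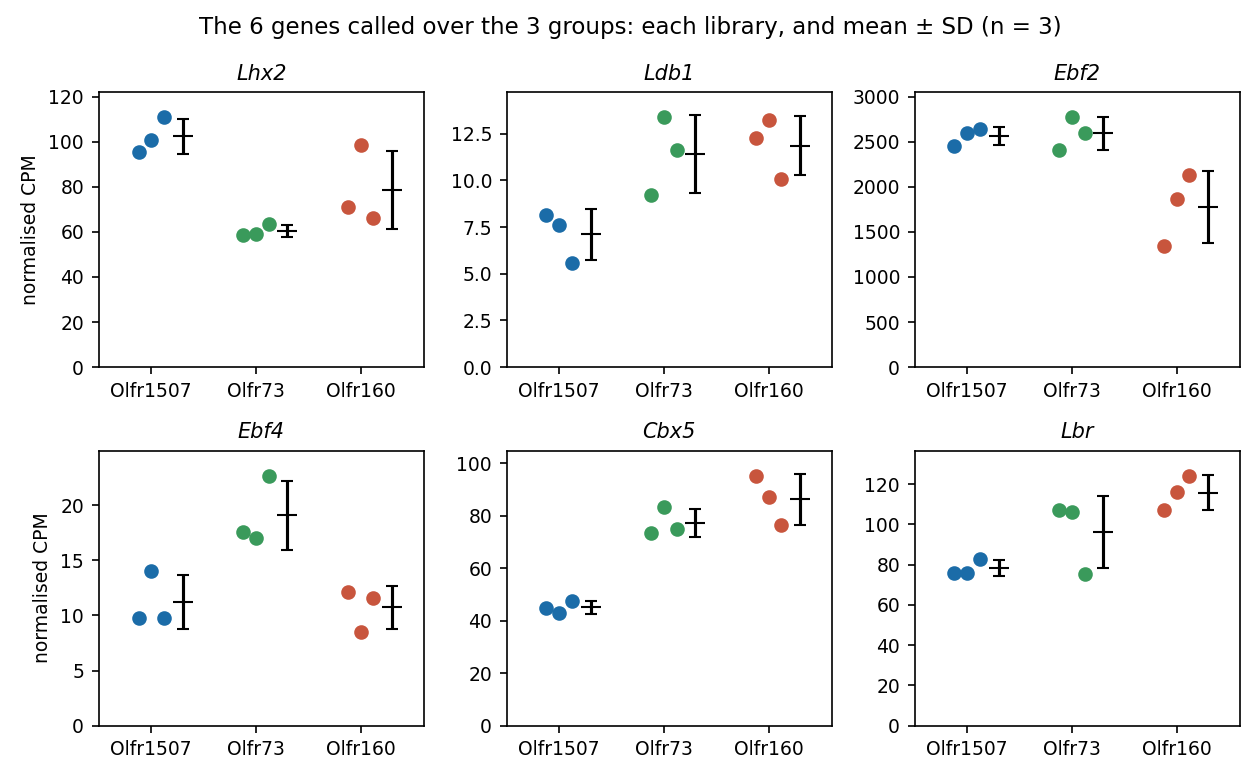
Normalised CPM (counts relative to the TMM-scaled library size; axes start at 0) of the 6 genes called over the 3 groups; coloured points are libraries and black marks are mean ± SD (n = 3). Cbx5 lies at 42.8 to 47.6 in Olfr1507 and at 73.3 or above in all Olfr73 and Olfr160 libraries. Lhx2 has its highest mean in Olfr1507, where Olfr160 library 2 (98.5) reaches into the range, and is tight in Olfr73.

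Lhx2 was higher in Olfr1507 than in Olfr73 neurons with TMM scaling, although the sign turned, to -0.18, when libraries were scaled to the 9 mature neuron markers. Lhx2 (chr2:38339281-38369733, plus strand, mm10) had 95.5, 101 and 111 normalised CPM in the Olfr1507 libraries, 58.7, 59.3 and 63.4 in the Olfr73 libraries, and 71.1, 98.5 and 66.3 in the Olfr160 libraries. The Olfr1507 and Olfr73 values were clear of each other, while library 2 of Olfr160 reached into the Olfr1507 range and the other Olfr160 libraries lay just above Olfr73. The log2 fold change was 0.76 (SE 0.15, adjusted p = 0.00504) for Olfr1507 over Olfr73. It was 0.38 (SE 0.15, adjusted p = 0.0609) for Olfr1507 over Olfr160 and -0.38 (SE 0.15, adjusted p = 0.111) for Olfr73 over Olfr160, and neither passed. Without Olfr160 library 2 the value over Olfr160 was 0.58 and passed (adjusted p = 0.00700). On the TPM scale the separation from Olfr73 was smaller: Lhx2 had 59.3, 60.8 and 67.2 TPM in Olfr1507 and 48.4, 51.8 and 44.3 TPM in Olfr73, a difference of 0.37 in log2(TPM + 1) that did not pass (limma, adjusted p = 0.120), and against Olfr160 the TPM difference was -0.10.

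Ldb1, the bridging partner of Lhx2, was lower in Olfr1507 than in Olfr160 neurons. Ldb1 (chr19:46031570-46045214, minus strand) had 8.15, 7.59 and 5.58 normalised CPM in the Olfr1507 libraries, 9.20, 13.4 and 11.7 in the Olfr73 libraries, and 12.3, 13.2 and 10.1 in the Olfr160 libraries. All 3 Olfr1507 values lay below all 6 others. Ldb1 fell in Olfr1507 relative to Olfr160 by 0.74 on the log2 scale (SE 0.24, adjusted p = 0.0294). The value for Olfr1507 over Olfr73 was -0.68 (SE 0.24, adjusted p = 0.0520), and that for Olfr73 over Olfr160 was -0.06 (adjusted p = 0.895). The marker levels given below beside Cbx5 stand beside Ldb1 as well, and their part was not tested. Ldb1 had few counts, and the call against Olfr160 was lost without Olfr1507 library 2 (adjusted p = 0.0647) or 3 (0.103) and without Olfr160 library 1 (0.0740) or 2 (0.0964), while that against Olfr73 passed without Olfr73 library 1 (0.0402) and with RLE size factors (0.0496) or DESeq2 (0.0255). The ratio of Lhx2 to Ldb1 TPM was 8.82, 9.23 and 13.3 in the Olfr1507 libraries, 5.30, 3.96 and 5.39 in the Olfr73 libraries and 5.36, 6.66 and 5.47 in the Olfr160 libraries. No Olfr1507 library overlapped with the other groups. The number of counts that each TPM stood for differed between libraries for both genes, as given below. An exact permutation test cannot go below p = 0.1 with 3 libraries against 3, so no p is given for the ratio.

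The Ebf family, formerly called Olf or O/E factors in these neurons, has 4 genes whose coding sequences are alike. Over the aligned coding bases Ebf1 was 73.5%, 79.6% and 71.0% identical to Ebf2, Ebf3 and Ebf4, Ebf2 was 75.6% and 69.6% identical to Ebf3 and Ebf4, and Ebf3 was 71.2% identical to Ebf4. No run of 50 bases was shared between the annotated transcripts of any pair of the family. The most alike stretch of 90 coding bases, part of the DNA-binding domain, is given to show how far reads of the paralogues can be told apart. It is read 5′ to 3′ from the GENCODE M21 transcripts (mm10), and capitals mark bases that differ from Ebf2.
Ebf2: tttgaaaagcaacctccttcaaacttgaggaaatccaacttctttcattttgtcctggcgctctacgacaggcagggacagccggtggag
Ebf1: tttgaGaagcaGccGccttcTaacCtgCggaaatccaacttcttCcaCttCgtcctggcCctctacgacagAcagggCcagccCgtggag
Ebf3: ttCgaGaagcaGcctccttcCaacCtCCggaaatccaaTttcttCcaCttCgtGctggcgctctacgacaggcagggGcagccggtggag
Ebf4: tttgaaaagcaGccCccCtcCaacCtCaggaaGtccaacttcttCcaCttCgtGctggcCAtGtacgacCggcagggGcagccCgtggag
Ebf1 and Ebf3 differed from Ebf2 at 13 of these 90 bases each and Ebf4 at 17, spread along the stretch. Read length is not stated in the labels.

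With TMM scaling Ebf2 was higher in Olfr1507 and Olfr73 than in Olfr160, whereas the mature marker scaling turned these values to -1.04 and -0.082. Ebf2 (chr14:67233292-67430918, plus strand) had 2451, 2591 and 2639.7 normalised CPM in the Olfr1507 libraries, 2408, 2773 and 2591 in the Olfr73 libraries, and 1342, 1867 and 2127 in the Olfr160 libraries. Olfr1507 and Olfr73 covered the same range and all Olfr160 libraries lay below it, with library 1 the lowest. The log2 fold change was 0.53 (SE 0.16, adjusted p = 0.0242) for Olfr1507 over Olfr160 and 0.54 (SE 0.16, adjusted p = 0.0473) for Olfr73 over Olfr160. It was -0.02 (adjusted p = 0.946) for Olfr1507 over Olfr73. The calls were near the threshold. The one for Olfr1507 over Olfr160 was lost without any one of Olfr1507 libraries 1, 2 and 3 (adjusted p = 0.0502, 0.0651 and 0.0691). It was also lost without Olfr160 library 2 (0.0512), with the 5 CPM filter (0.0516) and with the 6 libraries of the comparison (0.0647). With library size alone the value was 0.12 (adjusted p = 0.484), and against Olfr160 library 3 alone it was 0.27. On the TPM scale it was 0.38 and did not pass (limma, adjusted p = 0.0574 for log2(TPM + 1) and 0.0559 for log2(TPM + 0.1)). The call for Olfr73 over Olfr160 was kept without Olfr160 library 3 and lost when any one of the other 8 libraries was left out (adjusted p = 0.0613 to 0.118).

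With TMM scaling Ebf4 was highest in Olfr73. Ebf4 (chr2:130295169-130370481, plus strand), the family member with the lowest level, had 9.77, 14.0 and 9.77 normalised CPM in the Olfr1507 libraries, 17.6, 17.0 and 22.7 in the Olfr73 libraries, and 12.1, 8.49 and 11.6 in the Olfr160 libraries. The 3 Olfr73 values lay above all 6 others, and the Olfr1507 and Olfr160 values overlapped. The log2 fold change was -0.77 (SE 0.23, adjusted p = 0.0297) for Olfr1507 over Olfr73 and 0.83 (SE 0.23, adjusted p = 0.0372) for Olfr73 over Olfr160. For Olfr1507 over Olfr160 it was 0.06 (SE 0.23, adjusted p = 0.842). The call against Olfr73 was lost without Olfr1507 library 1 (adjusted p = 0.107) or 3 (0.101) or Olfr73 library 3 (0.0851). The call for Olfr73 over Olfr160 was kept without Olfr1507 library 1 or 2 and lost when any one of the other 7 libraries was left out (adjusted p = 0.0514 to 0.133). Scaling moved that value too: it was 0.72 with library size alone (adjusted p = 0.0700) and 0.14 with the mature marker scaling (adjusted p = 0.753), and neither passed.

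Ebf1 and Ebf3 did not pass in any comparison with TMM, and the mature marker scaling turned their values for Olfr1507 over Olfr160 to -1.25 and -1.31. Ebf1 (chr11:44617317-45008091, plus strand) had 331, 328 and 257 normalised CPM in Olfr1507, 306, 278 and 285 in Olfr73, and 154, 278 and 323 in Olfr160. Ebf3 (chr7:137193673-137314445, minus strand) had 84.5, 69.0 and 62.9 in Olfr1507, 67.0, 76.7 and 64.4 in Olfr73, and 45.3, 62.2 and 75.2 in Olfr160. For both genes the Olfr160 libraries were the most spread, and the groups overlapped. The largest log2 fold changes, those of Olfr1507 over Olfr160, were 0.28 for Ebf1 (SE 0.23, adjusted p = 0.347) and 0.24 for Ebf3 (SE 0.19, adjusted p = 0.308).

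Within the family Ebf2 made up most of the level in every library. It supplied 87.7 ± 1.63% of the summed Ebf TPM in Olfr1507, 87.7 ± 1.20% in Olfr73 and 85.0 ± 1.88% in Olfr160 (mean ± SD, n = 3). Ebf1 supplied 9.84 ± 1.38%, 9.36 ± 1.18% and 11.8 ± 2.16% in the same order. Ebf3 supplied 1.67% to 2.20% in Olfr1507, 1.81% to 2.01% in Olfr73 and 2.25% to 2.37% in Olfr160, so its share in each Olfr160 library was above that in each other library although its level was not. In shares of expected counts, Ebf3 in Olfr1507 (2.12% to 2.94%) and Olfr160 (2.81% to 2.96%) overlapped. Ebf4 supplied 0.580 ± 0.13%, 1.02 ± 0.18% and 0.833 ± 0.32%, with overlap between Olfr73 and Olfr160. The summed Ebf TPM was 1222 to 1259 in Olfr1507, 1298 to 1431 in Olfr73 and 742 to 1225 in Olfr160. The sum was thus widest within Olfr160, where one library lay at the Olfr1507 level and another far below it.

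**Figure D3:**
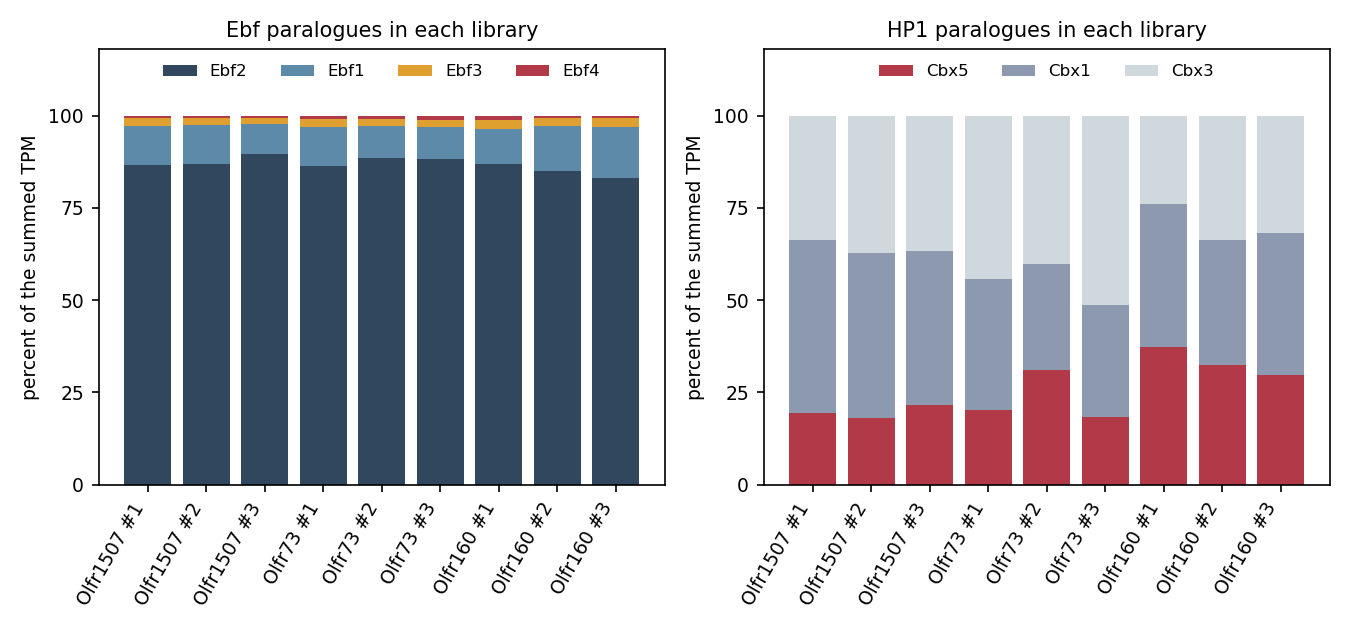
Share of each paralogue in the summed TPM (percent, stacked bars) of the Ebf family (left) and of the 3 HP1 genes (right) in each library. Ebf2 fills 83.2% to 89.6% of the Ebf sum in every library, while Cbx5 fills 18.2% to 21.5% of the HP1 sum in Olfr1507 and 29.8% to 37.4% in Olfr160.

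Emx2, a homeobox factor that in mice is required for normal expression of many odorant receptor genes, did not pass in any comparison with TMM. Emx2 (chr19:59458372-59465357, plus strand) had 6.26, 7.56 and 8.54 normalised CPM in Olfr1507, 8.23, 6.84 and 11.7 in Olfr73, and 9.15, 9.86 and 9.25 in Olfr160. All Olfr160 values lay above all Olfr1507 values, and Olfr73 spanned both. The log2 fold change was -0.34 (SE 0.25, adjusted p = 0.297) for Olfr1507 over Olfr160 and -0.26 (adjusted p = 0.451) over Olfr73. Over Olfr160 it passed with library size alone, at -0.76 (adjusted p = 0.0399), and with the mature marker scaling, at -1.95 (adjusted p = 0.000561). With these scalings 6262 and 14030 of the 16399 tested genes were called lower, and the median of all tested genes was -0.56 and -1.76. Emx2 stood at -0.20 from that median with both, as with TMM. Emx2 shares 264 exonic bases with Emx2os on the opposite strand, which had 146, 225 and 114 counts in Olfr1507, 217, 131 and 10 in Olfr73, and 314, 498 and 497 in Olfr160. Whether strand was used in counting is not stated, so reads from the shared bases cannot be assigned with certainty. Ldb1, Ebf2, Ebf3 and Lbr also overlap an opposite-strand gene (177, 424, 355 and 440 shared bases with Pprc1, Gm10860, Gm45278 and Dnah14), of which Pprc1 had 55 to 192 counts per library and the other 3 had at most 29.

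Kdm1a did not pass in any comparison with TMM, and its direction depended on the unit. Kdm1a (chr4:136550540-136602723, minus strand) had 7.88, 7.76 and 6.76 normalised CPM in Olfr1507, 6.65, 8.24 and 3.77 in Olfr73, and 7.95, 9.02 and 6.31 in Olfr160. The groups overlapped, and the log2 fold changes were -0.06 (SE 0.31, adjusted p = 0.896) for Olfr1507 over Olfr160 and 0.26 (adjusted p = 0.536) for Olfr1507 over Olfr73. In TPM, Kdm1a was lower in Olfr1507, at 4.46, 4.42 and 4.01, than in Olfr160, at 8.63, 6.63 and 6.76, and Olfr73 had 7.38, 8.30 and 3.58. That difference in log2(TPM + 1) was -0.65 for Olfr1507 over Olfr160 (adjusted p = 0.0806), and for Olfr1507 over Olfr73 it was -0.42 (adjusted p = 0.284), the reverse of the sign in the counts.

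The number of counts that each TPM stood for differed between the groups for some of the genes. This number depends on the length of the transcripts to which reads were assigned in a library, and it was set to a mean of 1 per gene and scaled by 555 genes with a single annotated transcript. For Kdm1a it was 1.37, 1.32 and 1.26 in the Olfr1507 libraries, 0.778, 0.836 and 0.875 in the Olfr73 libraries and 0.797, 1.18 and 0.822 in the Olfr160 libraries. For Lhx2 it was 1.12 to 1.14 in Olfr1507, 0.874 to 1.08 in Olfr73 and 0.825 to 1.00 in Olfr160. Both genes therefore had more counts per TPM in every Olfr1507 library than in any other. For Cbx5 it was 0.890 to 0.915 in Olfr1507, 1.26, 0.993 and 1.2995 in Olfr73, and 0.901 to 0.998 in Olfr160, with libraries 1 and 3 of Olfr73 apart from the rest. For Ldb1 it was 1.295 in Olfr73 library 3 and 0.909 to 1.04 in the other libraries. For Ebf2, Ebf3, Ebf4 and Lbr it stayed within 0.962 and 1.04 in all libraries. Isoform levels were not analysed here.

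**Figure D4:**
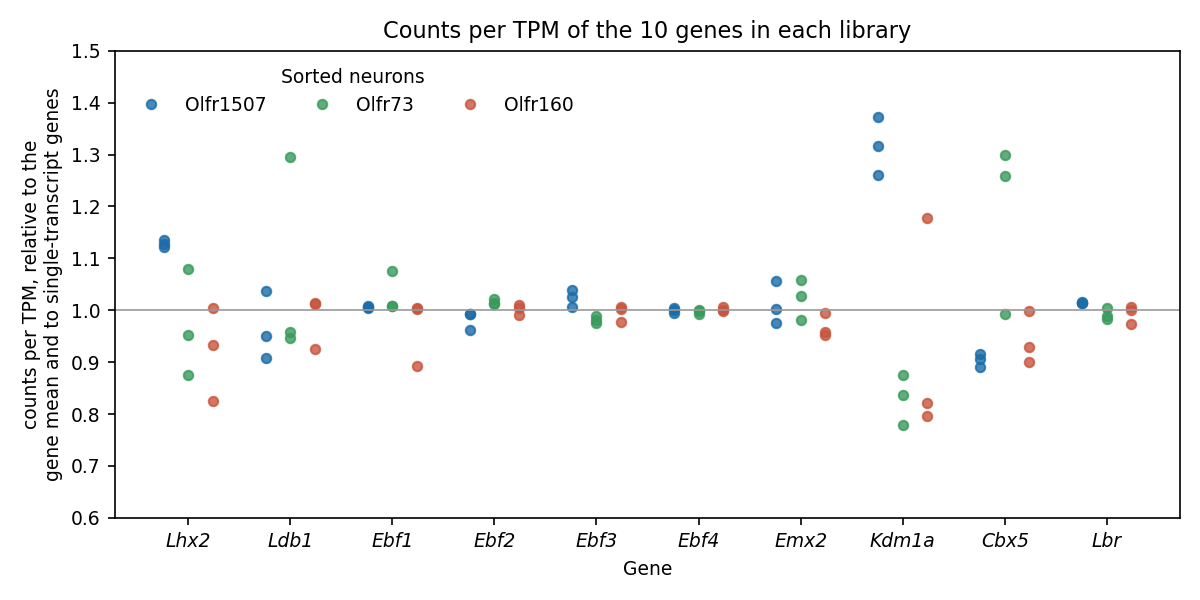
Expected counts per TPM of the 10 genes in each library, relative to the mean of the gene over the 9 libraries and to genes with a single transcript (grey line at 1); points are libraries, coloured by group. Kdm1a and Lhx2 lie highest in the Olfr1507 libraries, at 1.26 to 1.37 and 1.12 to 1.14, and Ebf4 lies within 0.994 and 1.01 in all libraries.

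Cbx5, which encodes HP1 alpha, was the member with the largest and firmest difference. Cbx5 (chr15:103191544-103239816, minus strand) had 44.6, 42.8 and 47.6 normalised CPM in the Olfr1507 libraries, 73.3, 83.3 and 74.8 in the Olfr73 libraries, and 95.2, 86.9 and 76.2 in the Olfr160 libraries. The Olfr1507 values were far below all others and close to each other, while Olfr73 and Olfr160 overlapped. Cbx5 fell in Olfr1507 by 0.94 on the log2 scale relative to Olfr160 (SE 0.11, adjusted p = 0.000224) and by 0.78 relative to Olfr73 (SE 0.11, adjusted p = 0.00119). The value for Olfr73 over Olfr160 was -0.16 (SE 0.11, adjusted p = 0.352). The call against Olfr160 held in each alternative that was run, and that against Olfr73 was lost on the TPM scale alone (difference in log2(TPM + 1) of -0.52, adjusted p = 0.0570). The summed level of the 10 immature neuron markers was also lowest in the Olfr1507 libraries, at 0.101% to 0.102% of the counts against 0.139% to 0.172% in Olfr73 and 0.224% to 0.240% in Olfr160. Sustentacular and gland cell markers stood further apart in the same order of groups, with means of 0.0344%, 0.383% and 2.89%. Basal and progenitor markers did so too, at 0.000411%, 0.00741% and 0.0460%. The mean shares of respiratory, immune, red blood cell and glia, stroma and vessel markers also kept this order. Microvillar and brush cell markers did not: their mean was lowest for Olfr73 (0.0108%), followed by Olfr1507 (0.0127%), and highest for Olfr160 (0.0448%). The part of these markers in the result was not tested.

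Of the other HP1 genes, Cbx1 was not called in any comparison and Cbx3 was called in both comparisons with Olfr73; whether they differed from Cbx5 was not tested. Cbx1 (HP1 beta) and Cbx3 (HP1 gamma), named here as its paralogues after their values were seen, are 70.2% and 70.0% identical to Cbx5 over the aligned coding bases and share no run of 50 bases with it. The most alike 90 coding bases, part of the chromoshadow domain through which HP1 proteins pair, are shown with capitals for bases that differ from Cbx5 (5′ to 3′, GENCODE M21 transcripts, mm10).
Cbx5: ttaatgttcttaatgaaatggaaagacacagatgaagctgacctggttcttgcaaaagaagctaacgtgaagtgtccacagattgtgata
Cbx1: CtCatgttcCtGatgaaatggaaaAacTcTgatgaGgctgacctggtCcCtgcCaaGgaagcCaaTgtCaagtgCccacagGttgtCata
Cbx3: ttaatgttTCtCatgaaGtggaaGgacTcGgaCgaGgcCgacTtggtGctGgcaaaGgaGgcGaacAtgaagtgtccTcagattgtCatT
Cbx1 differed from Cbx5 at 18 of these bases and Cbx3 at 20, and retrocopies of either gene elsewhere in the genome were not compared. Cbx1 had 37.1, 36.0 and 31.0 TPM in Olfr1507, 36.1, 26.4 and 31.9 in Olfr73 and 37.1, 35.5 and 35.0 in Olfr160, and its log2 fold change was 0.07 (adjusted p = 0.746) for Olfr1507 over Olfr160. Cbx3 had 26.5, 29.8 and 27.2 TPM in Olfr1507, 44.8, 36.8 and 53.8 in Olfr73 and 23.1, 35.2 and 28.9 in Olfr160. Cbx3 was higher in Olfr73 than in the others, by a log2 fold change of -0.71 for Olfr1507 over Olfr73 (adjusted p = 0.0158) and of 0.73 for Olfr73 over Olfr160 (adjusted p = 0.0263). Cbx5 made up 18.2% to 21.5% of the summed HP1 TPM in Olfr1507, 18.4% to 31.1% in Olfr73 and 29.8% to 37.4% in Olfr160.

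Lbr, the lamin B receptor of the inner nuclear membrane, was lower in Olfr1507 than in Olfr160. Lbr (chr1:181815335-181843046, minus strand) had 76.0, 75.7 and 82.9 normalised CPM in the Olfr1507 libraries, 107, 106 and 75.4 in the Olfr73 libraries, and 107, 116 and 124 in the Olfr160 libraries. The Olfr1507 and Olfr160 libraries were clear of each other, and in Olfr73 library 3 lay with Olfr1507 while the other libraries lay near Olfr160. Lbr fell in Olfr1507 by 0.57 on the log2 scale relative to Olfr160 (SE 0.14, adjusted p = 0.00979). The value relative to Olfr73 was -0.30 (SE 0.14, adjusted p = 0.127), and for Olfr73 over Olfr160 it was -0.27 (SE 0.14, adjusted p = 0.218). Without Olfr73 library 3 the value relative to Olfr73 was -0.44 and passed (adjusted p = 0.0166). The call relative to Olfr160 was lost against Olfr160 library 3 alone (-0.67, adjusted p = 0.0546). The value relative to Olfr73 also passed with library size alone, at -0.61 (adjusted p = 0.00808). The median of all tested genes was then -0.47, and 4706 of 16399 genes were called lower. The marker levels given beside Cbx5 stand beside Lbr as well, and their part was not tested.

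**Figure D5:**
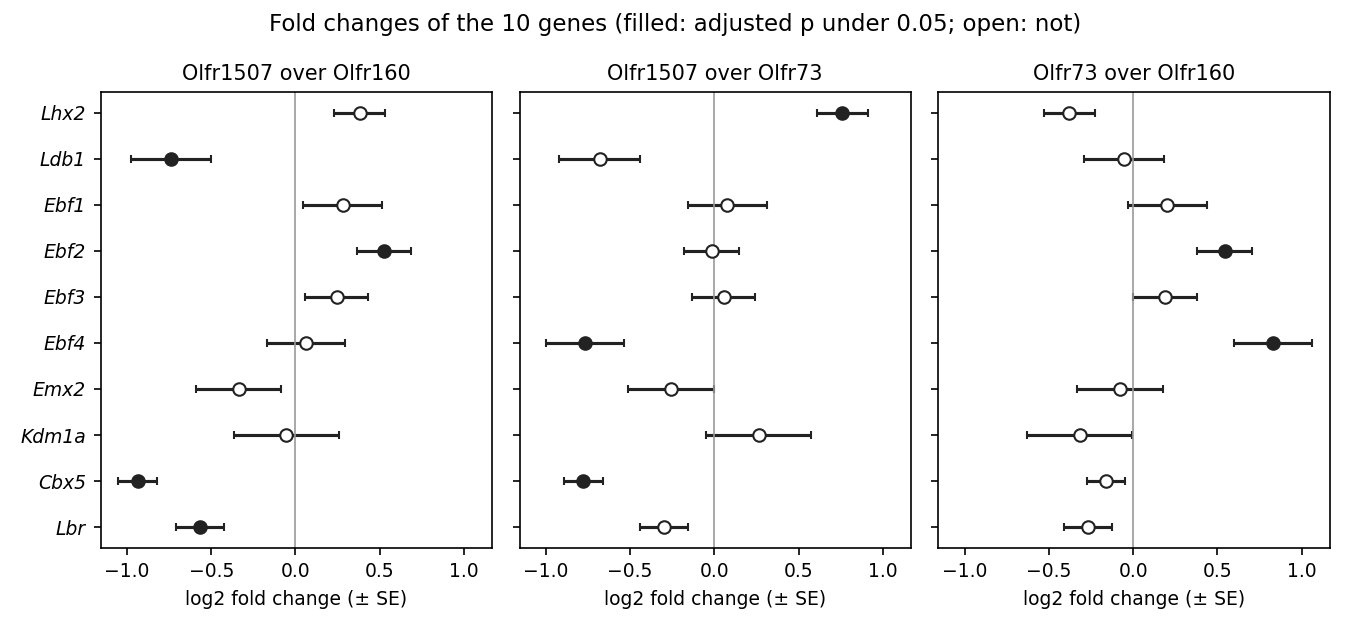
Log2 fold changes (edgeR, ± SE) of the 10 genes in the 3 comparisons; filled points have an adjusted p under 0.05 and open points do not. Cbx5 lies at -0.94 and -0.78 for Olfr1507 over Olfr160 and over Olfr73 and near 0 for Olfr73 over Olfr160, and Ebf4 departs from 0 in the comparisons with Olfr73.

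The direction of several genes depended on how libraries were scaled. With the TMM factors used above, the median change over the 16399 tested genes, in log2, was -0.14, -0.15 and -0.01 for Olfr1507 over Olfr160, Olfr1507 over Olfr73 and Olfr73 over Olfr160. It was -0.56, -0.47 and -0.12 with library size alone and -1.76, -1.09 and -0.69 with libraries scaled to the 9 mature neuron markers, whose share of the counts differed between the groups. The share of called genes that were higher was 42.8%, 42.2% and 41.6% with TMM, 17.7%, 18.2% and 30.6% with library size alone and 0.771%, 3.27% and 2.06% with the mature marker scaling. A scaling moves all genes of a library by one factor, so values relative to the median of all genes differ little between scalings by construction, and they are given only to place the 10 genes among the rest. Against that median, for Olfr1507 over Olfr160, Cbx5 stood at -0.80, Ldb1 at -0.60 and Lbr at -0.43 with TMM and at -0.83, -0.62 and -0.41 with the mature marker scaling, and Ebf2 stood at 0.66 and 0.72 and Lhx2 at 0.52 and 0.52. For Olfr1507 over Olfr73, Lhx2 stood at 0.91 above the median in both, Cbx5 at -0.62 and Ebf4 at -0.61 and -0.62. Taken without the median, the Lhx2 value over Olfr73 turned to -0.18 and the Ebf2 value over Olfr160 to -1.04 with the mature marker scaling.

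For 5 of the 10 genes, Lhx2, Ebf1, Ebf2, Ebf3 and Cbx5, the spread within a group was widest in Olfr160. The coefficient of variation of normalised CPM over the 3 libraries was 7.68%, 4.24% and 22.1% for Lhx2 in Olfr1507, Olfr73 and Olfr160, 13.8%, 5.19% and 34.9% for Ebf1, and 3.83%, 7.05% and 22.5% for Ebf2. Library 1 of Olfr160 had the lowest share of the tagged receptor and the lowest Ebf1, Ebf2 and Ebf3, and library 3 the highest of all 4. For Lbr, Emx2 and Kdm1a the variation was greatest in Olfr73, at 18.7%, 28.0% and 36.4%. Against Olfr160 library 3 alone, an alternative chosen after seeing the data that assumes that library to vary like the others, Cbx5 was lower in Olfr1507 by 0.76 (adjusted p = 0.00975) and Lhx2 higher by 0.63 (adjusted p = 0.0229), and the other 8 genes did not pass.

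Beyond the 10 genes, 62 genes in 6 lists gave the setting of partners and complexes. Their counts are to be read against the 48.4%, 34.4% and 17.9% of all tested genes that were called for Olfr1507 over Olfr160, Olfr1507 over Olfr73 and Olfr73 over Olfr160 with TMM. Of the 16399 tested genes, library size alone called 1343, 1047 and 857 higher and 6262, 4706 and 1942 lower. The mature marker scaling called 109, 333 and 103 higher and 14030, 9837 and 4894 lower. Of 14 partners of the LIM complex and of Ebf proteins, 8 were tested: 1 was higher and 2 were lower in Olfr1507 than in Olfr160, none passed between Olfr1507 and Olfr73, and 1 was higher in Olfr73 than in Olfr160. In the comparisons of Olfr1507 with Olfr160 and with Olfr73, library size alone gave 0 higher and 3 lower in each, and the mature marker scaling 0 higher and 6 lower in each. Their median log2 fold changes with TMM were 0.11, -0.46 and 0.31, beside -0.14, -0.15 and -0.01 for all tested genes. Zfp423, a zinc-finger protein that binds Ebf proteins, had 3.61, 6.52 and 4.29 TPM in Olfr1507 and 6.69, 12.4 and 9.92 TPM in Olfr160 and fell by 1.04 (adjusted p = 0.00681). Lmo4, a LIM-only protein that competes for Ldb1, had 6.86, 8.90 and 3.41 TPM in Olfr1507 and 21.9, 26.8 and 14.3 TPM in Olfr160 and fell by 1.54 (adjusted p = 0.00980). Library size alone and the mature marker scaling lowered all values of this comparison, to medians of -0.56 and -1.76 over all tested genes. Both genes therefore stayed lower by construction. The marker levels given beside Cbx5 stand beside both genes, and their part was not tested. Ssbp2, which binds Ldb1, was the most abundant of the list, at 465 to 507 TPM in Olfr1507, 565 to 756 TPM in Olfr73 and 562 to 659 TPM in Olfr160, and did not pass in any comparison with TMM. Its transcript level was thus many times that of Ldb1 in every library.

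Of 12 genes listed with Kdm1a, which were partners in its complexes and its paralogue Kdm1b, 11 were tested. For Olfr1507 over Olfr160, 0 were higher and 3 lower. For Olfr1507 over Olfr73, 1 was higher and 2 were lower, and the same counts held for Olfr73 over Olfr160. Kdm1b was among the lower genes in both comparisons with Olfr160. Each share was 3 in 11, where 48.4%, 34.4% and 17.9% of all genes were called. Library size alone gave 0 higher with 8, 5 and 2 lower, and the mature marker scaling 0 higher with 11, 9 and 4 lower. Of all 16399 tested genes, library size alone called 6262, 4706 and 1942 lower and the mature marker scaling 14030, 9837 and 4894. The medians were -0.12, -0.11 and -0.05. Hdac2, a histone deacetylase, had 4.59, 3.30 and 3.42 TPM in Olfr1507, 10.2, 8.45 and 5.28 TPM in Olfr73 and 23.7, 25.8 and 15.4 TPM in Olfr160. It was lower by 2.34 for Olfr1507 over Olfr160 (adjusted p = 0.000196), by 0.94 for Olfr1507 over Olfr73 (0.0251) and by 1.40 for Olfr73 over Olfr160 (0.0101), and the summed level of the immature neuron markers, though not each marker, stood in the same order of groups; its part was not tested. Kdm1b, the paralogue of Kdm1a, was at 0.32 to 1.25 TPM in Olfr1507 and Olfr73 and at 4.17, 4.66 and 2.96 TPM in Olfr160. Its log2 fold change was -2.21 for Olfr1507 over Olfr160 (adjusted p = 0.00629) and -2.27 for Olfr73 over Olfr160 (adjusted p = 0.0174). The marker levels given beside Cbx5 were also highest in Olfr160, and their part in the Kdm1b result was not tested. Hdac1, the most abundant of the list at 85.1 to 162 TPM over all libraries, did not pass.

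Of 11 enzymes and cofactors of the H3K9 and H4K20 methylation found on silent receptor genes, 1 was higher and 0 were lower for Olfr1507 over Olfr160, 0 higher and 1 lower for Olfr1507 over Olfr73, and 1 higher and 0 lower for Olfr73 over Olfr160, fewer in each than the 48.4%, 34.4% and 17.9% of all genes. The medians were 0.04, 0.22 and -0.10. For Olfr1507 over Olfr160 library size alone gave 1 higher and 5 lower, and the mature marker scaling gave 0 higher with 10, 7 and 6 lower in the 3 comparisons. Of all 16399 tested genes, the former called 6262 lower and the latter 14030, 9837 and 4894. Wiz, a partner of the H3K9 methyltransferases G9a and GLP, was higher in Olfr1507 than in Olfr160 by 0.77 (adjusted p = 0.00221) with TMM and lower by 0.80 with the mature marker scaling. Setdb2, related to H3K9 methyltransferases, had 22.1, 12.9 and 12.5 TPM in Olfr1507 and 32.8, 22.7 and 25.3 TPM in Olfr73, and fell by 0.62 (adjusted p = 0.0174). Atf7ip, the partner of Setdb1 and the most abundant of the list, had 194 to 196 TPM in Olfr1507, 146 to 196 TPM in Olfr73 and 160 to 214 TPM in Olfr160 and did not pass.

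Of 12 HP1 paralogues and nuclear lamina genes, 1 was higher and 3 lower for Olfr1507 over Olfr160, 2 higher and 3 lower for Olfr1507 over Olfr73, and 2 higher and 1 lower for Olfr73 over Olfr160, beside 48.4%, 34.4% and 17.9% of all genes. The mature marker scaling gave 0 higher with 12, 9 and 5 lower, where it called 14030, 9837 and 4894 of the 16399 tested genes lower. The medians with TMM were -0.01, -0.17 and -0.14. Sun1, which spans the inner nuclear membrane and connects the lamina to the cytoskeleton, stood in the reverse order of group means to Lbr: it had 852, 842 and 748 TPM in Olfr1507, 533, 574 and 527 TPM in Olfr73 and 309, 395 and 455 TPM in Olfr160. Its log2 fold changes were 1.22 (adjusted p = 0.000188), 0.72 (0.00495) and 0.50 (0.0401) for Olfr1507 over Olfr160, Olfr1507 over Olfr73 and Olfr73 over Olfr160, and all turned negative (-0.35, -0.22 and -0.13) with the mature marker scaling. Tm7sf2, a sterol reductase whose sequence is related to the membrane part of Lbr, had 3.69, 3.74 and 4.76 TPM in Olfr1507, 16.7, 7.31 and 10.2 TPM in Olfr73 and 19.7, 16.6 and 13.6 TPM in Olfr160. It fell by 2.13 relative to Olfr160 (adjusted p = 0.00165) and by 1.54 relative to Olfr73 (adjusted p = 0.0116). The group means of Tm7sf2 and Lbr were thus both lowest in Olfr1507. The marker levels given beside Cbx5 stand beside Tm7sf2 as well, and their part was not tested.

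Of 10 CTCF and cohesin genes, which shape chromosome loops, 3 were higher and 0 lower for Olfr1507 over Olfr160 with TMM, below the 48.4% of all genes called. Library size alone gave 0 higher and 2 lower, and the mature marker scaling 0 higher and 10 lower. Of all 16399 tested genes, these scalings called 6262 and 14030 lower. For Olfr1507 over Olfr73, 1 was higher and 1 lower, and for Olfr73 over Olfr160 3 were higher and 0 lower with TMM, against 34.4% and 17.9% of all genes. For these, the mature marker scaling gave 0 higher with 9 and 2 lower, where it called 9837 and 4894 of all tested genes lower. The medians with TMM were 0.18, -0.11 and 0.29. Rad21, a cohesin subunit, had 40.3, 27.1 and 26.8 TPM in Olfr1507, 27.4, 23.9 and 20.9 TPM in Olfr73 and 19.2, 19.8 and 22.5 TPM in Olfr160, with log2 fold changes of 0.81 (adjusted p = 0.00367) over Olfr160 and 0.54 (adjusted p = 0.0318) over Olfr73. Smc1a, another subunit, was higher by 0.53 in Olfr1507 than in Olfr160 (adjusted p = 0.00242). With the mature marker scaling Rad21 stood at -0.79 and Smc1a at -1.08 for Olfr1507 over Olfr160. Of 3 genes of the feedback by which an expressed receptor stabilises its own choice, 2 were higher in Olfr1507 than in either other group with TMM. Of all tested genes, 20.7% were called higher over Olfr160 and 14.5% over Olfr73. Library size alone called 2 of the 3 higher over Olfr160 and 1 over Olfr73, beside 1343 and 1047 of the 16399 tested genes. With the mature marker scaling, 0 of the 3 were higher and 1 was lower than in Olfr160, and 1 was higher and 1 lower than in Olfr73. That scaling called 109 and 333 of all tested genes higher and 14030 and 9837 lower. The feedback gene that it called lower did not pass in either comparison with TMM. Adcy3, the adenylyl cyclase of odor transduction, had 543, 549.8 and 511 TPM in Olfr1507, 237, 265 and 223 TPM in Olfr73 and 141, 206 and 263 TPM in Olfr160. Atf5, a transcription factor made in response to receptor protein in the endoplasmic reticulum, had 54.9, 31.5 and 26.0 TPM in Olfr1507, 20.9, 23.1 and 19.6 TPM in Olfr73 and 10.4, 13.4 and 18.2 TPM in Olfr160. The log2 fold changes over Olfr160 and over Olfr73 were 1.60 (adjusted p = 0.000249) and 1.301 (0.00136) for Adcy3 and 1.64 (0.00201) and 1.01 (0.0259) for Atf5. With the mature marker scaling Adcy3 stood at 0.06 and 0.36, and Atf5 at 0.10 and 0.08.

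Genes with the most similar profile over the 9 libraries were found for each of the 10 by the root mean square difference of log2(normalised CPM + 1), centred on each gene, among 13385 genes. Ebf2 had the closest match, Cul5 at 0.0636, followed by Bex2 at 0.0735, where the profile of Ebf2 itself had a root mean square of 0.314. Lhx2 was nearest to Nfkbia (0.0944) and Flot2 (0.0983), Ebf1 to Pde4dip (0.103) and Cltc (0.110), Ebf3 to Gtf3c1 (0.0811) and Ralgapb (0.0893), and Ldb1 to Ppp1cb (0.127) and Tomm6 (0.136). Ebf4 was nearest to Mafg (0.145) and Pigm (0.157), Emx2 to Pdcd10 (0.101) and Cyren (0.114), and Kdm1a to Mrpl54 (0.0999) and Gcc1 (0.126). The neighbours of Cbx5 were Lrrc1 (0.108) and BC022960 (0.116) and those of Lbr were Gnb3 (0.0671) and Tinf2 (0.0837), of which BC022960 and Gnb3 had means under 1 normalised CPM. No gene of the 10 was among the nearest neighbours of another.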

How the data were processed

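RNA of sorted neurons was sequenced in 9 libraries (3 groups of 3). The series description speaks of duplicates, and all 3 libraries per group were used. Per the submitters' processing notes, reads were aligned to mm10 with STAR 2.6.1 and quantified with RSEM 1.3.1, and DESeq2 was listed. The authors deposited gene-level RSEM expected counts, of which 4.06% to 5.54% per library were not whole, and TPM made by the authors, scaled for transcript length and depth. The annotation release is not given in the sources used here. Coordinates, coding sequences and overlaps came from GENCODE M21 (GRCm38), which held 98.7% of the transcript identifiers of the tables. The columns carry older receptor names, matched by RefSeq synonyms and checked by the tagged receptors.

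After rounding to whole numbers, expected counts went into edgeR 4.0.16 (R 4.3.3), with filterByExpr (16399 genes kept), TMM factors, 1 quasi-likelihood fit to the 9 libraries with robust dispersions, F tests and a Benjamini-Hochberg threshold of 0.05. Standard errors were obtained from each fold change and the square root of its F. Totals of 17212807 to 36230606 counts limit precision for genes with few counts. Alternatives were RLE factors, library size alone, scaling to 9 mature neuron markers, other filters, DESeq2 1.42.0, limma 3.58.1 on log2(TPM + 1) and log2(TPM + 0.1), unrounded counts, the 6 libraries of a comparison, the replicate number as a block, and leaving out each library. Olfr160 library 3 alone was added after seeing the data. The fit was tested on simulated data. No pair of libraries agreed within sampling noise. The genes and lists were chosen with earlier results of these data known. Named in the text are the 10 genes in all comparisons, per list the 2 genes with the lowest p over the groups and the most abundant one, and per gene the 2 nearest profiles, with Olfr genes and gene models left out of the latter. Python 3.11.15, pandas 2.3.3, Biopython 1.88 and matplotlib 3.10.9 were used.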

Additional observations from a re-analysis of the deposited data

How the results depend on the processing

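Over 21 alternatives for each of the 30 fold changes, 504 of 630 values kept their direction and their side of the threshold, 49 lost a call, 23 gained one and 54 changed sign. The call of Cbx5 for Olfr1507 over Olfr160 held in all 21. The mature marker scaling called 14139, 10170 and 4997 genes for Olfr1507 over Olfr160, Olfr1507 over Olfr73 and Olfr73 over Olfr160 and 13705 over any group, where TMM called 7939, 5640, 2936 and 8333, and of the 10 genes it called 10 against Olfr160 and 8 against Olfr73 in Olfr1507, and 10 over any group. With Olfr160 library 3 alone, genes called were 3337 (Olfr1507 over Olfr160), 61 (Olfr73 over Olfr160) and 4366 (any group), and 2, 0 and 2 of the 10 genes. Leaving out 1 library gave 3657 to 5546 genes for Olfr1507 over Olfr73 and 976 to 3062 for Olfr73 over Olfr160, and 2 to 4, 2 to 4, 0 to 1 and 3 to 6 of the 10 genes in the 4 tests. For Olfr1507 over Olfr73, 5 of the 10 genes were called with the filter of 5 CPM and with library size alone. For Olfr73 over Olfr160, 0 of the 10 genes were called with the 6 libraries of the comparison and with no filter, and 1 with RLE factors, with library size alone and with the replicate block. The share of called genes that were higher was 36.7%, 40.0% and 32.5% with RLE factors.

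Signs turned as follows, and the cause was not tested. For Olfr1507 over Olfr160 with the mature marker scaling the values were -1.24 (Lhx2), -1.25 (Ebf1), -1.04 (Ebf2), -1.31 (Ebf3) and -1.57 (Ebf4), and with library size alone -0.038 (Lhx2), -0.12 (Ebf1), -0.17 (Ebf3) and -0.37 (Ebf4). With Olfr160 library 3 alone they were -0.079 (Ebf1), -0.057 (Ebf3), -0.047 (Ebf4) and 0.24 (Kdm1a). On the TPM scale Lhx2 was -0.096 and -0.095 and Ebf4 -0.14 and -0.12 with pseudocounts of 0.1 and 1. Ebf4 was also -0.085 with the 5 CPM filter, -0.041 with DESeq2 and -0.044 with RLE factors. For Olfr1507 over Olfr73 the mature marker scaling gave -0.18 (Lhx2), -0.86 (Ebf1), -0.88 (Ebf3) and -0.67 (Kdm1a), library size alone -0.24 (Ebf1), -0.26 (Ebf3) and -0.049 (Kdm1a), and the 5 CPM filter -0.0050 (Ebf1) and -0.026 (Ebf3). On the TPM scale, with pseudocounts of 0.1 and 1, Ebf1 was -0.052 with either, Ebf3 -0.17 and -0.16, and Kdm1a -0.48 and -0.42. Ebf2 was 0.015 with no filter. For Olfr73 over Olfr160 the mature marker scaling gave -0.38 (Ebf1), -0.082 (Ebf2) and -0.43 (Ebf3), and Olfr160 library 3 alone 0.17 (Ldb1), -0.17 (Ebf1), -0.12 (Ebf3) and 0.010 (Cbx5). Leaving out each library in turn gave values on both sides of 0 for 7 of the 30 fold changes: Ebf4 (-0.13 to 0.16) and Kdm1a (-0.18 to 0.070) for Olfr1507 over Olfr160, Ebf2 (-0.061 to 0.057) and Ebf3 (-0.067 to 0.16) for Olfr1507 over Olfr73, and Ldb1 (-0.22 to 0.078), Ebf1 (-0.056 to 0.42) and Emx2 (-0.32 to 0.045) for Olfr73 over Olfr160.

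Replicate numbers did not pair the libraries: the deviations of same-numbered libraries of Olfr1507 and Olfr160 correlated at -0.22, 0.027 and -0.045, and in no pair of groups were all above 0.1. With the replicate block Ebf4 lost its calls for Olfr1507 over Olfr73 (-0.76, adjusted p = 0.0623) and Olfr73 over Olfr160 (0.83, adjusted p = 0.0698), and the other 28 values kept their side. As shares of expected counts, Ebf3 made up 2.45%, 2.34% and 2.90% of the family in Olfr1507, Olfr73 and Olfr160, and Ebf4 0.379% and 0.645% in Olfr1507 and Olfr73. Genes with few counts, Ldb1, Emx2, Kdm1a and Ebf4, were limited by depth.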
